A study of Arabidopsis thaliana with 8 samples.

Results

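The genes described here are the 509 of 25198 listed Arabidopsis thaliana genes whose messenger RNA was highest in fha2 seedlings alone. A gene was a member when its mean FPKM (fragments per kilobase of transcript and of sequencing depth) in fha2 was at least 1 and at least 1.5 times the mean of each of the other 3 genotypes. Both fha2 libraries also had to lie above all 6 other libraries. Members make up 2.02% of the listed genes and 2.83% of the 17981 genes with a mean of at least 1 FPKM in fha2. Members were thus chosen by the FPKM values of fha2 against each other genotype. Every difference between fha2 and another genotype is therefore given below as a description. Statements on the order of genotypes, or on overlap between their libraries, are descriptions of single genes too. The share of all genes with such an order was not counted, and nothing is read from it. Where calls of fha2 against Col are counted, the rule fixes their direction and nothing is read from them.

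The study profiled whole seedlings at day 11, grown on plates at 22 °C with 16 h light and 8 h dark, with 2 libraries for each of 4 genotypes, all in the Col background. The genotypes were the single mutant fha2-/-, the double mutant chr11-/-chr17-/- (called chr11/17), the double mutant rlt1-/-rlt2-/- (called rlt1/2) and the wild type, Col. The labels name no alleles and do not state whether both libraries of a genotype were grown apart, so p-values measure the spread between libraries, which may be technical. RNA came from whole seedlings, in which fewer cells of a type and less RNA per cell cannot be told apart.

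The ATPases CHR11 and CHR17 drive the ISWI remodelling complexes of plants, which slide nucleosomes along DNA. RLT1 and RLT2 are DDT-domain proteins that bind these ATPases, and FHA2 carries a forkhead-associated domain, a fold that binds phosphorylated peptides. ISWI mutants of Arabidopsis are known for early flowering and for altered leaf and floral organ growth.

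FHA2 itself had 2.59 and 0.87 FPKM in fha2, against 19.1 and 20.4 FPKM in the libraries labelled chr11/17, 19.2 and 17.59 FPKM in rlt1/2, and 16.4 and 18.1 FPKM in Col. RLT2 had 0.47 and 0.45 FPKM in rlt1/2, against 4.85 and 6.33 FPKM in Col. RLT1, which overlaps AT1G28410, was less reduced, at 2.79 and 2.98 FPKM in rlt1/2, against 3.56 and 5.33 FPKM in Col. CHR11 was not reduced in the libraries labelled chr11/17, at 21.2 and 21.2 FPKM, against 11.2 and 11.7 FPKM in Col, and CHR17, which overlaps AT5G18610, was at 6.04 and 6.41 FPKM there, against 3.73 and 5.2 FPKM in Col. Neither gene checks that label. The 8 libraries held between 20962202 and 22012119 expected counts, which are estimates per gene that can hold fractions. Markers of mesophyll and root were present in all libraries. The summed level of 3 mesophyll markers (RBCS1A, LHCB1.1 and CA1) lay between 12114 and 12466 FPKM in chr11/17, against 43097 to 46365 FPKM in Col. In fha2 that sum was 30914 to 32332 FPKM and in rlt1/2 29572 to 30974 FPKM. The summed level of 3 root markers (PYK10, EXPA7 and COBL9) was 414 to 418 FPKM in fha2 and 269 to 281 FPKM in Col. It was 807 to 816 FPKM in chr11/17 and 734 to 783 FPKM in rlt1/2. PYK10 made up most of this sum in all libraries, and the other markers did not all follow it. EXPA7 had 4.5 and 4.8 FPKM in fha2, against 6.87 and 5.75 FPKM in Col. COBL9 had 1.68 and 1.73 FPKM in chr11/17, against 2.66 and 1.79 FPKM in Col. For 3 flower markers (AP3, PI and AG) the sum was 0.58 to 0.79 FPKM in fha2 and 0.56 to 0.57 FPKM in Col. It was 33.7 to 37.1 FPKM in chr11/17 and 10.04 to 12.3 FPKM in rlt1/2, where AP3 made up most in both. PI and AG did not follow AP3 in chr11/17. PI had 0.19 and 0.34 FPKM there, against 0.22 and 0.2 FPKM in Col, and AG had 0 and 0.03 FPKM, against 0.15 and 0.09 FPKM. The summed level of 3 seed markers (CRU3, CRA1 and OLEO1) was 0.28 to 0.54 FPKM in fha2, 106 to 230.2 FPKM in chr11/17, 54.4 to 65.7 FPKM in rlt1/2 and 0.08 to 0.41 FPKM in Col, where OLEO1 and CRA1 were near 0 and CRU3 was listed at 0. The part of these differences between the libraries in the results below was not tested.

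Most members stood only a little above the next genotype. The ratio of fha2 to the next highest genotype had a median of 1.62 over the 506 members with a value there, and 454 members lay under 2-fold. At least 2-fold was reached by 52 members and at least 3-fold by 7. Col was next highest for 302 members, rlt1/2 for 178 and chr11/17 for 26. Median levels over the members were 4.74 FPKM in fha2, 1.44 FPKM in chr11/17, 2.49 FPKM in rlt1/2 and 2.68 FPKM in Col. By level in fha2, 95 members lay under 2 FPKM, 170 between 2 and 5, 114 between 5 and 10, 114 between 10 and 50, and 16 at 50 FPKM or more.

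The membership depended on how the libraries were scaled. TMM factors, which correct for a few abundant genes taking up reads, were 0.841 and 0.895 in the Col libraries and 1.02 to 1.09 in the other 6. Dividing each FPKM column by its factor and applying the same rule gave 204 genes, of which 197 were members (38.7% of the members and 96.6% of those 204). In TMM-scaled CPM (counts scaled to library size) Col was the highest of the other genotypes for 449 of the 506 members. The ratio of fha2 to the highest other genotype on that scale had a median of 1.57 for members with chr11/17 next highest in FPKM, 1.55 for those with rlt1/2 next and 1.36 for those with Col next. It was at least 1.5 for 17 of the 26, 104 of the 178 and 76 of the 302. The 197 members that also met the rule on TMM-scaled FPKM are called scale-independent below, a name that covers this 1 scale only. They are not all the same genes as those at 1.5 or more in TMM-scaled CPM. On TMM-scaled CPM the full rule was met by 187 members. Just inside the limit of 1.5 stood AT5G37000, AT3G62630, EMB2766 and SAC3A (all 1.5 when rounded), and just outside it LAC6 (1.498), TCP14 (1.499), SOS2 (1.499) and DFL1 (1.499).

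**Figure D1:**
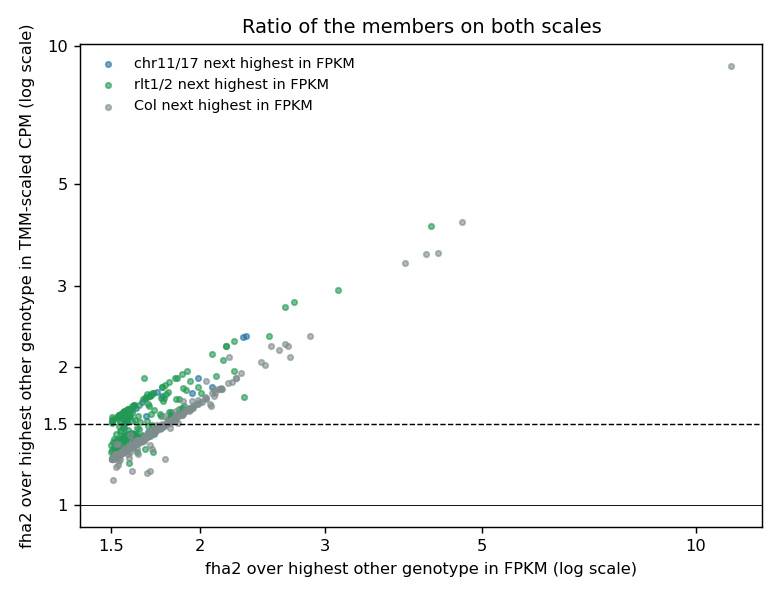
Ratio of fha2 to the highest other genotype for 506 members, in FPKM (horizontal, log scale) and in TMM-scaled CPM (vertical, log scale, where the highest other genotype is taken anew), coloured by which genotype was next highest in FPKM. Each point is a gene; the dashed line marks 1.5. Of the 302 genes with Col next highest (grey) 76 lie at or above the line, and of the 178 with rlt1/2 next highest (green) 104 do.

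A first group of members were genes for transcription factors of leaf and organ growth, and several of these carry sequences complementary to microRNAs. MicroRNAs are short RNAs that guide the cutting or silencing of transcripts they pair with, and in Arabidopsis miR319, miR160, miR166, miR167 and miR156 are known regulators of TCP, ARF, HD-ZIP III and SBP genes. The microRNAs and sites below are shown because 9 transcription factor genes of the set share this feature. The search was chosen after the members had been seen. MicroRNAs are written 5′ to 3′ with bases 2 to 8, the seed, in capitals, and were read at annotated RefSeq loci of the assembly TAIR10.1.
miR319c: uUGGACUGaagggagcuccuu
miR160a: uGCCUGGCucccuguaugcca
miR166a: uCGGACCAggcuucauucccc
miR167a: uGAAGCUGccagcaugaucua
miR167c: uAAGCUGCcagcaugaucuug
miR156j: uGACAGAAgagagagagcac

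The sites are written 5′ to 3′ on the coding strand, with bases that pair with the microRNA by Watson-Crick rules in capitals, and all lie in coding sequence.
TCP2 (chr4:10163402-10163422, minus strand, miR319c): cAGGgGgaCCCTTCAGTCCAA
TCP3 (chr1:19850522-19850542, minus strand, miR319c): gAGGgGtcCCCTTCAGTCCAt
TCP4 (chr3:5063300-5063320, plus strand, miR319c): gAGGgGtcCCCTTCAGTCCAg
TCP10 (chr2:13221210-13221230, minus strand, miR319c): AAGGgGtaCCCTTCAGTCCAg
ARF16 (chr4:14704141-14704161, minus strand, miR160a): gGGttTACAGGGAGCCAGGCA
ATHB-15 (chr1:19412976-19413085, minus strand, across an intron, miR166a): ctGGAATGAAGCCTGGTCCGg
ARF8 (chr5:14633841-14633861, plus strand, miR167a): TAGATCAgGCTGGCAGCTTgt
ARF6 (chr1:10686479-10686499, minus strand, miR167c): tgAGATCAgGCTGGCAGCTTg
AT1G69170 (chr1:26006731-26006750, plus strand, miR156j): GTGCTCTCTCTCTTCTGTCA

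The 4 TCP sites share the run CCCTTCAGTCCA, which pairs with the 5′ end of miR319c, and differ at 4 or 5 positions that are unpaired or form G:U pairs. AT1G69170, an SBP-domain gene, pairs with miR156j at every base. Complementarity was scored as 1 per mismatch and 0.5 per G:U pair, doubled from base 2 to base 13 of the microRNA, without bulges, over 51 distinct mature sequences of 26 families. A site with a score of at most 4 was found in 14 members (2.75% of 509), against 0.770% of all listed genes and 0.818% of genes with at least 1 FPKM in fha2. At a score of at most 3 the members with a site numbered 6 (1.18%), against 0.353% of all listed genes, and at a score of at most 2 there was 1 member (0.196%), against 0.159%. A match is a description of the sequence and does not show that the transcript is cut. Only 3 of the 14, TCP10, AT3G01410 and AT4G23840, were scale-independent.

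The TCP genes encode transcription factors that set cell proliferation in leaves, and 6 of the 24 listed were members. TCP10 had 29.0 and 28.9 FPKM in fha2, 8.92 and 11.8 FPKM in chr11/17, 9.45 and 13.2 FPKM in rlt1/2, and 14.9 and 14.3 FPKM in Col. TCP4 had 27.2 and 25.8 FPKM in fha2, 4.42 and 7.89 FPKM in chr11/17, 15.2 and 16.8 FPKM in rlt1/2, and 18.4 and 16.5 FPKM in Col. The fha2 libraries were highest for both genes by the rule, and the chr11/17 libraries were lowest, without overlap with the other genotypes for TCP4 but overlapping rlt1/2 for TCP10.

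TCP3 had 28.2 and 28.8 FPKM in fha2, 6.83 and 6.79 FPKM in chr11/17, 16.8 and 19.0 FPKM in rlt1/2, and 17.5 and 17.1 FPKM in Col. TCP2 had 19.1 and 17.9 FPKM in fha2, 5.82 and 6.90 FPKM in chr11/17, 7.38 and 9.37 FPKM in rlt1/2, and 12.3 and 12.1 FPKM in Col. TCP3 overlapped between rlt1/2 and Col, and the TCP2 libraries lay in the order fha2, Col, rlt1/2, chr11/17 without overlap. TCP15, a class I member of the family without a site in this search, had 13.5 and 12.7 FPKM in fha2, 3.49 and 3.45 FPKM in chr11/17, 5.96 and 7.13 FPKM in rlt1/2, and 6.60 and 7.20 FPKM in Col. TCP5 was the sixth, with a mean of 7.02 FPKM in fha2 and 4.14 to 4.32 FPKM in the other 3 genotypes. TCP24, the remaining gene of the miR319-regulated group, was no member, at 16.5 and 15.7 FPKM in fha2, against 13.8 and 14.4 FPKM in Col. Only TCP10 and TCP15 were scale-independent.

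ARF6 and ARF8, auxin response factors that promote flower maturation and cell expansion, had 8.82 and 9.23 FPKM and 11.4 and 10.4 FPKM in fha2, against 5.39 and 5.43 FPKM and 6.68 and 6.93 FPKM in Col. ARF16, which acts in root cap formation, had 6.17 and 7.01 FPKM in fha2, 1.87 and 1.86 FPKM in chr11/17, 2.37 and 2.52 FPKM in rlt1/2, and 4.23 and 3.8 FPKM in Col. All 3 followed the order fha2, Col, rlt1/2, chr11/17 with no overlap between libraries of different genotypes. The first place of fha2 is set by the rule, and the share of all genes in this order was not counted. ARF10 and ARF17, which also hold a miR160 site, were not members, with fha2 at 1.08 and 0.879 times the next genotype. ATHB-15, an HD-ZIP III factor of vascular development, was at 3.90 to 4.07 FPKM in fha2, whereas the other HD-ZIP III genes with a miR166 site, PHB, PHV, REV and HB-8, stood at 0.785 to 1.39 times the next genotype. Not all genes with such sites were thus members.

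**Figure D2:**
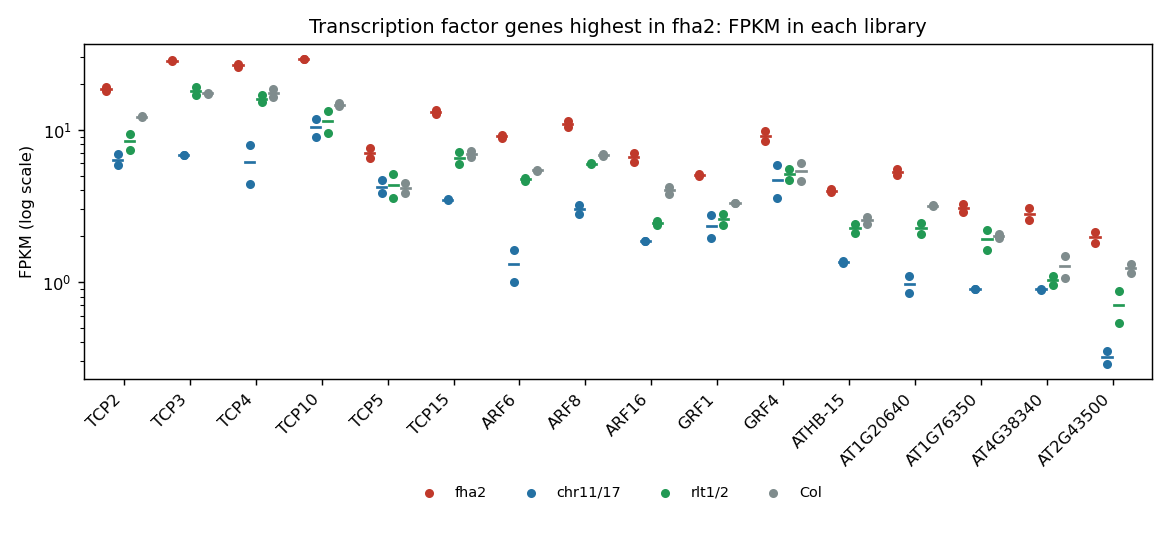
FPKM (log scale) of 16 transcription factor genes of the set in each library; points are the 2 libraries of a genotype and bars their mean, with fha2 left and Col right for each gene. The fha2 points are the highest for each gene by the rule, and the chr11/17 points the lowest for most, for example 1.0 and 1.61 FPKM for ARF6.

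Of the other transcription factor families, 4 of the 9 genes of the RWP-RK family related to NIN, which includes regulators of the nitrate response, were members. AT4G38340 had 2.54 and 3.05 FPKM in fha2, 0.89 and 0.90 FPKM in chr11/17, 1.1 and 0.95 FPKM in rlt1/2, and 1.06 and 1.49 FPKM in Col, and was the only scale-independent one of the 4. AT1G20640 (5.28 FPKM in fha2 and 3.18 FPKM in Col), AT1G76350 (3.07 and 2.00 FPKM) and AT2G43500 (1.97 and 1.23 FPKM) stood at 1.54 to 1.66 times the next genotype. NLP7, a central nitrate regulator, lay just outside at 1.47. Of 21 listed Dof zinc finger genes 5 were members, among them AT1G28310 at 4.97 and 4.62 FPKM in fha2, 1.30 and 1.29 FPKM in chr11/17, 1.69 and 2.46 FPKM in rlt1/2, and 2.35 and 2.23 FPKM in Col. AT1G28310 was the only scale-independent one of these 5. GRF1 and GRF4 were the 2 members among 9 growth-regulating factors, which promote leaf cell proliferation. Neither was scale-independent. GRF4 had 8.49 and 9.81 FPKM in fha2, 3.56 and 5.83 FPKM in chr11/17, 5.52 and 4.70 FPKM in rlt1/2, and 4.57 and 6.06 FPKM in Col, where the 3 other genotypes overlapped.

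ANT, an AP2-type factor that sustains organ growth, had 6.30 and 6.18 FPKM in fha2, 0.96 and 1.67 FPKM in chr11/17, 3.92 and 3.52 FPKM in rlt1/2, and 2.41 and 2.89 FPKM in Col. SEU, a co-regulator of floral organ identity genes, had 4.32 and 3.92 FPKM in fha2, 0.36 and 0.62 FPKM in chr11/17, 0.93 and 2.20 FPKM in rlt1/2, and 1.43 and 0.99 FPKM in Col. Both were scale-independent, and rlt1/2 and Col overlapped for SEU but not for ANT. SEU was picked after its values had been seen. AGL20, the flowering integrator also known as SOC1, was the only member among 11 flowering time genes and was not scale-independent. It had 23.3 and 18.0 FPKM in fha2, 14.1 and 9.76 FPKM in chr11/17, 7.13 and 8.63 FPKM in rlt1/2, and 11.6 and 14.6 FPKM in Col, so that chr11/17 and Col overlapped.

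Genes of small RNA machinery made up 5 of the 27 listed. AGO10, an Argonaute protein that sequesters miR165 and miR166 in the shoot meristem, had 5.98 and 5.80 FPKM in fha2, 1.51 and 1.89 FPKM in chr11/17, 3.42 and 3.11 FPKM in rlt1/2, and 2.78 and 3.68 FPKM in Col. RDR1, an RNA-dependent RNA polymerase of antiviral silencing, had 2.25 and 2.46 FPKM in fha2, 0.88 and 0.85 FPKM in chr11/17, 0.95 and 1.06 FPKM in rlt1/2, and 1.18 and 1.16 FPKM in Col. These 2 were scale-independent. DCL2 and DCL3, dicers of small interfering RNA, and IDN2, a factor of RNA-directed DNA methylation, stood at 1.70, 1.61 and 1.53 times the next genotype. For DCL2 the ratio was 1.70 in FPKM, 1.41 in CPM of total counts and 1.19 in TMM-scaled CPM.

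A second group of members serve growth of the wall and membrane. Among 14 genes of cellulose synthesis, CESA5 and CESA6, subunits of the primary wall cellulose synthase, and CSI1, which links that complex to microtubules, were members. CESA6 had 23.63 and 23.4 FPKM in fha2, 6.55 and 7.24 FPKM in chr11/17, 14.8 and 15.7 FPKM in rlt1/2, and 13.9 and 14.6 FPKM in Col. CESA5 had 15.6 and 14.9 FPKM in fha2, 3.89 and 4.81 FPKM in chr11/17, 8.52 and 8.88 FPKM in rlt1/2, and 9.07 and 10.1 FPKM in Col. In both, chr11/17 lay apart below the other genotypes and no libraries of different genotypes overlapped. None of the 3 was scale-independent. LNG2, which promotes longitudinal cell elongation, and GH9B8, an endoglucanase family enzyme, stood at 1.58 and 1.64 times the next genotype.

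Sterol genes contributed 3 of 14 listed. DWF1, an enzyme of sterol and brassinosteroid synthesis, had 104 and 109 FPKM in fha2, 17.2 and 23.9 FPKM in chr11/17, 46.4 and 58.2 FPKM in rlt1/2, and 70.3 and 67.3 FPKM in Col. SMT3, a sterol methyltransferase, had 31.0 and 30.8 FPKM in fha2, 12.4 and 14.3 FPKM in chr11/17, 17.7 and 21.5 FPKM in rlt1/2, and 16.3 and 15.9 FPKM in Col, and alone of the 3 was scale-independent. SQS2, a squalene synthase gene, stood at 1.78 times the next genotype. For all 3 the chr11/17 libraries were lowest.

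Cuticle and wax genes were 7 of 30 listed, and 3 of these, SHN3, CYP86A7 and PEL3, were scale-independent. SHN3, a transcription factor that activates cuticle synthesis, had 2.39 and 1.76 FPKM in fha2, 0.05 and 0 FPKM in chr11/17, 0.49 and 0.20 FPKM in rlt1/2, and 0.94 and 0.51 FPKM in Col. PEL3, an acyltransferase whose loss makes the cuticle permeable, had 26.1 and 23.7 FPKM in fha2, 6.39 and 8.79 FPKM in chr11/17, 11.3 and 16.3 FPKM in rlt1/2, and 7.72 and 11.9 FPKM in Col. The chr11/17 and Col libraries overlapped for PEL3 and did not for SHN3. KCS8 and KCS16, which elongate very long chain fatty acids, and LACS1, which activates them, stood at 1.63, 1.69 and 1.59 times the next genotype. WSD1, a wax ester synthase, was at 1.47 and 0.86 FPKM in fha2, barely above the 0.79 FPKM of the higher chr11/17 library.

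A further group relate to osmolytes and abscisic acid. Of 12 listed genes of raffinose and proline synthesis and abscisic acid transcription factors, 5 were members. P5CS1, which makes the precursor of proline, had 210.7 and 178 FPKM in fha2, 132 and 109 FPKM in chr11/17, 82.8 and 95.7 FPKM in rlt1/2, and 109 and 123 FPKM in Col. ABF3, a factor of abscisic acid responses, had 46.9 and 44.0 FPKM in fha2, 26.5 and 23.7 FPKM in chr11/17, 8.69 and 9.65 FPKM in rlt1/2, and 21.9 and 30.3 FPKM in Col. In both, rlt1/2 was lowest, as for AGL20, while chr11/17 and Col overlapped.

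GolS2, a galactinol synthase of the raffinose pathway, had 21.3 and 17.0 FPKM in fha2, 0.48 and 0.26 FPKM in chr11/17, 4.85 and 4.85 FPKM in rlt1/2, and 7.93 and 15.7 FPKM in Col. GolS4 and the raffinose synthase SIP1 (AT5G40390) stood at 1.91 and 1.66 times the next genotype, and GolS4 alone of the 5 was scale-independent. Of 16 cold and abscisic acid genes, KIN2, CBF2 and GolS2 were members, and only CBF2 of these was scale-independent. KIN2 had 94.1 and 91.0 FPKM in fha2, 50.3 and 45.1 FPKM in chr11/17, 39.1 and 34.3 FPKM in rlt1/2, and 57.0 and 56.2 FPKM in Col. CBF2, an upstream factor of the cold response, had only 1.02 and 1.63 FPKM in fha2, with 0.33 to 0.73 FPKM in all other libraries. The one member of 18 salicylic acid genes was CBP60G, and the one of 20 iron and copper genes was NAS2. None of the listed ISWI subunit, jasmonate, heat shock, phosphate and nitrate, seed maturation, circadian clock, low oxygen, floral organ identity or photosynthesis genes was a member. Members make up only 2.02% of all listed genes, so nothing is read from these absences or from the single members.

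**Figure D3:**
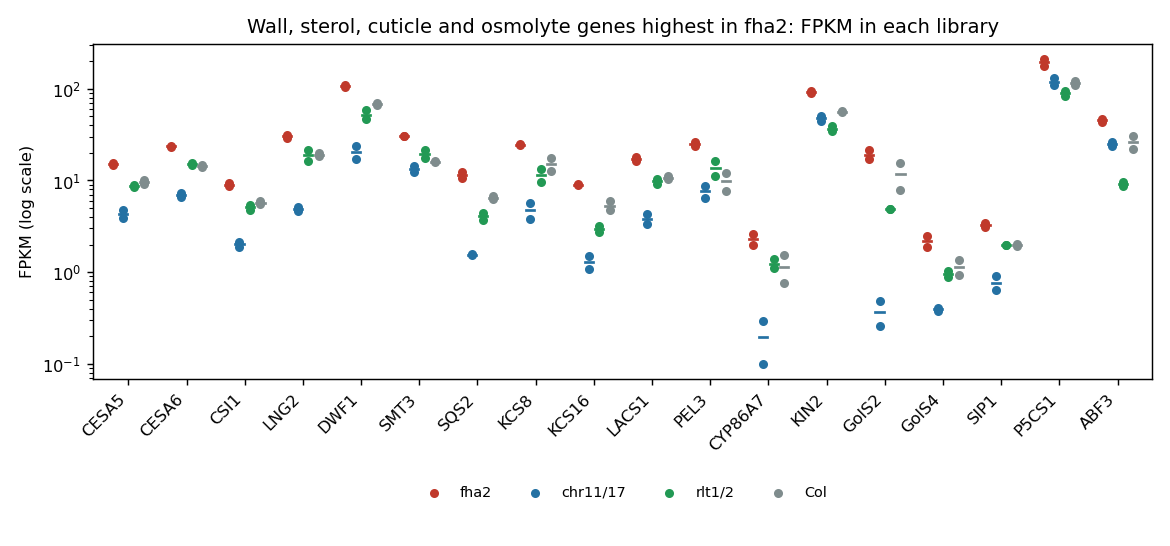
FPKM (log scale) in each library of 18 members with roles in the wall, sterols, the cuticle and osmolytes; points are the 2 libraries of a genotype and bars their mean, with fha2 left and Col right for each gene. For most genes chr11/17 is lowest, for example 0.48 and 0.26 FPKM for GolS2, whereas ABF3, P5CS1 and KIN2 are lowest in rlt1/2.

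The most abundant members were ESM1, AT1G73600 and PGLP1, none of them scale-independent. ESM1, which steers glucosinolate breakdown towards isothiocyanates, had 554 and 793 FPKM in fha2, 68.4 and 103 FPKM in chr11/17, 269.9 and 271 FPKM in rlt1/2, and 442 and 439 FPKM in Col. AT1G73600, an S-adenosylmethionine-dependent methyltransferase, had 273 and 338 FPKM in fha2, 7.06 and 34.9 FPKM in chr11/17, 60.9 and 73.0 FPKM in rlt1/2, and 187 and 161 FPKM in Col. Genotypes did not overlap for either gene. LTL1, a lipase linked to lithium tolerance, was the most abundant scale-independent member of known function, with 74.1 and 90.2 FPKM in fha2, 7.50 and 9.73 FPKM in chr11/17, 34.0 and 42.3 FPKM in rlt1/2, and 33.4 and 33.1 FPKM in Col.

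PGLP1, the phosphatase that opens photorespiration, was uncertain because AT5G36790 is a copy with 98.7% identity. Its own ratio of 1.51 became 1.02 when the FPKM of both genes were summed. Near-identical copies of at least 95% identity over at least 50% of the transcript were found for 7 members. The summed ratio lay from 0.831 to 1.49 for these 7, so each fell under the limit of 1.5 once the copy was added. The member with the highest ratio, AT5G50640 (11.2), is one of them: its FPKM was 2.47 and 3.70 in fha2, 0 and 0 in chr11/17, 0.41 and 0 in rlt1/2, and 0.55 and 0 in Col, and with its copy AT5G50530 the ratio was 1.245. AT1G38131, with a ratio of 4.24, came to 1.05 with its copy.

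Of the other members with a ratio of at least 3, AT2G30480 was the one with close libraries, at 4.62 and 4.78 FPKM in fha2, 0.48 and 0.55 FPKM in chr11/17, 0.23 and 0.46 FPKM in rlt1/2, and 1.19 and 1.23 FPKM in Col. AT4G12495, AT5G15581 and AT3G18915 had fha2 libraries that differed from each other, for example 12.1 and 22.2 FPKM for AT4G12495. AT5G01895, AT5G49645 and AT2G05655 were listed at 0 in all 6 other libraries. Their fha2 levels were 1.96 and 0.71 FPKM, 0.96 and 1.54 FPKM, and 1.2 and 0.80 FPKM. Both fha2 libraries together held only 36.2, 37.8 and 11 counts of them, so lower bounds alone can be given. With 3 counts over the genotype as the floor, fha2 was at least 9.82, 10.2 and 2.99 times Col.

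Members lay on all 5 chromosomes at 1.81% to 2.27% of the listed genes, and 3 of the 201 listed genes in a window of 100 genes on each side of FHA2 were members (1.49%). Direct neighbours made up 10 pairs, and whether this number exceeds random placement was not tested. On chromosome 4, members of the lipid-transfer protein family stood in a cluster, though none of them directly neighboured another: AT4G22485, AT4G22505, AT4G22517 and AT4G22520, all scale-independent. AT4G22505 had 82.4 and 68.5 FPKM in fha2, 0.36 and 5.38 FPKM in chr11/17, 31.3 and 54.1 FPKM in rlt1/2, and 16.7 and 19.3 FPKM in Col. AT4G22520 had 31.0 and 31.6 FPKM in fha2, 0 and 0 FPKM in chr11/17, 11.1 and 16.9 FPKM in rlt1/2, and 7.43 and 5.46 FPKM in Col. In both, rlt1/2 stood between fha2 and Col.

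The same cluster holds AT4G22490, no member, at 46.0 and 46.1 FPKM in fha2, 1.39 and 6.41 FPKM in chr11/17, 28.4 and 36.4 FPKM in rlt1/2, and 19.5 and 19.8 FPKM in Col. AT4G22513, a lipid-transfer family gene of the cluster that overlaps AT4G22510, was no member and was highest in rlt1/2. It had 16.9 and 17.5 FPKM in fha2, 0.53 and 9.77 FPKM in chr11/17, 23.64 and 27.3 FPKM in rlt1/2, and 6.91 and 11.1 FPKM in Col. AT4G22470, at the edge of the cluster, was instead highest in chr11/17, at 3.07 and 10.4 FPKM in fha2, 36.0 and 55.1 FPKM in chr11/17 and 1.89 and 1.52 FPKM in Col. Each of the 4 members overlaps another listed gene, and as the strand used in counting is not given, their reads and those of the overlapping gene cannot be separated. Over all members 136 (26.7%) overlap another listed gene, against 25.4% of all listed genes. Their median gene length was 2881 bases, against 2388 bases among listed genes with at least 1 FPKM in fha2.

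The comparisons that the choice of members did not use directly set the other genotypes against each other, with the edgeR quasi-likelihood test on rounded expected counts (TMM scaling, Benjamini-Hochberg adjusted over 20866 genes, called at an adjusted p under 0.05). Of the members 504 passed the filter on low counts and 5 did not. The rule caps chr11/17 and rlt1/2 below fha2, so genes raised in them could hardly become members, and the direction of the counts below is partly set by that choice. In fha2 against Col, the contrast the rule used, 217 members were called higher (43.1%) and 0 lower, beside 6.33% of all genes tested higher and 8.76% lower. The rule fixes this direction, and nothing is read from it.

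In chr11/17 against Col, 399 of the 504 members fell (79.2%), beside 34.4% of all genes tested. No member was called higher by edgeR, DESeq2 or limma-voom, and 0 had a higher value at an unadjusted p under 0.05, beside 34.8% of all genes called higher. The median log2 fold change of the members was -1.04, against -0.01 over all genes tested, and 266 members lay below -1. Among the 193 tested scale-independent members 128 fell (66.3%) and the median was -0.996. With total counts in place of TMM scaling, 325 members fell (64.5%, beside 25.1% of all genes tested) and 4 rose (0.794%, beside 44.3%).

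The members with the smallest adjusted p in chr11/17 against Col were AT1G69160, GH9B8, AT1G06360 and LNG2. GH9B8 had 0.79 and 1.12 FPKM in chr11/17, against 6.50 and 7.22 FPKM in Col, which is -3.12 ± 0.15 as a log2 fold change with its SE (edgeR adjusted p = 2.6e-09). LNG2 fell by 2.26 ± 0.13 (edgeR adjusted p = 1.2e-08), with 4.59 and 5.19 FPKM in chr11/17 against 18.4 and 19.9 FPKM in Col. Of the 6 TCP members 5 fell, TCP5 being the exception at -0.25 ± 0.18 (edgeR adjusted p = 0.23). Of the 24 TCP genes 20 were tested, with 12 lower and 3 higher.

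ARF6 fell by 2.31 ± 0.15 on the log2 scale (edgeR adjusted p = 3.9e-08), at 1.0 and 1.61 FPKM in chr11/17 against 5.39 and 5.43 FPKM in Col, and ARF8 and ARF16 also fell. All 4 RWP-RK members fell, as did 8 of the 9 listed NIN-like genes. The 3 cellulose synthesis members fell, by 1.33 to 1.79, among 12 lower and 2 higher of the 14 listed genes. GolS2 fell by 5.25 ± 0.37 (edgeR adjusted p = 7.7e-08). The 5 small RNA members fell, among 13 lower and 4 higher of the 25 listed genes tested. Of the 7 cuticle and wax members 6 fell, among 18 lower and 7 higher of 28 tested, and the 3 sterol members fell, among 9 lower and 3 higher of 14 tested. These counts stand beside the 79.2% of all members that fell. The call of PEL3 was lost when Col replicate 2 or chr11/17 replicate 1 was left out (edgeR adjusted p = 0.18 and 0.083), and that of ABF3 without Col replicate 2 or chr11/17 replicate 2 (edgeR adjusted p = 0.40 and 0.20). With total counts AT4G38340, SMT3, IDN2, PEL3 and ABF3 were no longer called. AT4G38340 was also not called without Col replicate 2 (edgeR adjusted p = 0.077).

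In rlt1/2 against Col, 166 members fell (32.9%), beside 18.7% of all genes tested, and 1 rose, beside 18.7%. The median log2 fold change was -0.35, against 0.01 over all genes tested. This count rested on rlt1/2 replicate 1, since 84 members fell without it (16.6% of 506 tested, beside 12.4% of all genes), and on the scaling. With total counts 71 fell (14.1%, beside 8.86% of all genes) and 11 rose (2.18%, beside 38.9%). Among the 193 tested scale-independent members 37 fell (19.2%, near the 18.7% of all genes) and the median was -0.17. In total 153 members fell in both double mutants, 245 in chr11/17 only by this call, and 13 in rlt1/2 only by this call, while 92 were called in neither. The shares of all genes tested in these classes were not counted, so this split is not read as particular to the members. Of those 92, AT4G23840, a leucine-rich repeat protein gene, was the scale-independent example among genes with a microRNA site, at 4.54 and 4.62 FPKM in fha2 and 2.39 to 2.81 FPKM in all 6 other libraries.

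AT1G62510, a lipid-transfer family gene, was among the 4 members with the smallest adjusted p in rlt1/2 against Col, at 33.1 and 29.2 FPKM in rlt1/2 against 81.2 and 72.4 FPKM in Col. Its log2 fold change was -1.59 ± 0.14 (edgeR adjusted p = 4.3e-06). It overlaps the member AT1G62515 on the opposite strand, so the reads of these 2 genes cannot be told apart. AT3G22142, a further lipid-transfer gene, which overlaps AT3G22125, had 0 counts in both rlt1/2 libraries, and with 3 counts over the genotype as the floor it was at least 104-fold lower in rlt1/2 than in Col. ABF3 fell by 1.77 ± 0.13 (edgeR adjusted p = 1.6e-06). AT3G05640, a protein phosphatase 2C gene, fell by 1.96 ± 0.17 (edgeR adjusted p = 5e-06), with 2.17 and 2.80 FPKM in rlt1/2 against 7.55 and 8.50 FPKM in Col.

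P5CS1, KIN2 and AGL20 fell by 0.66 ± 0.13, 0.91 ± 0.11 and 1.01 ± 0.20 in rlt1/2 (edgeR adjusted p = 0.0018, 4.5e-05 and 0.0015). TCP2 and TCP10 fell by 0.85 ± 0.13 and 0.65 ± 0.15 (edgeR adjusted p = 0.0003 and 0.0038), and TCP10 was not called with total counts (edgeR adjusted p = 0.062). TCP15 was called at -0.36 ± 0.12 with all libraries, but without rlt1/2 replicate 1, Col replicate 1 or Col replicate 2 its edgeR adjusted p was 0.22, 0.071 and 0.10. The 1 member that rose was AT4G22520, at 0.83 ± 0.26 (edgeR adjusted p = 0.026). Without rlt1/2 replicate 2 or without Col replicate 2 it was not called (edgeR adjusted p = 0.23 and 0.18).

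**Figure D4:**
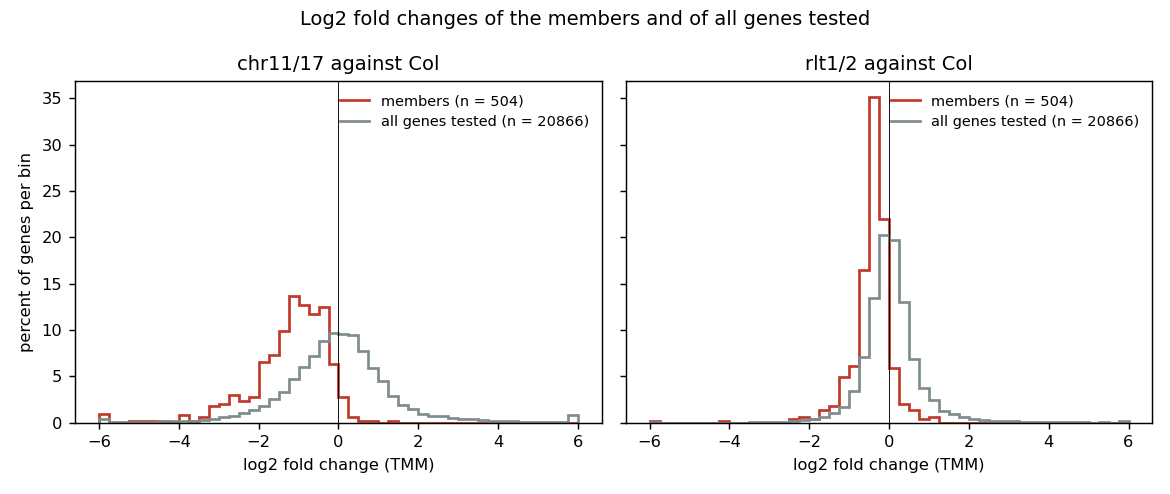
Percent of genes per bin of log2 fold change (0.25 wide, values beyond 6 placed in the end bins) for chr11/17 against Col (left) and rlt1/2 against Col (right); the red line is the 504 members tested and the grey line all 20866 genes tested. The members are shifted to lower values in chr11/17 (median -1.04) and less so in rlt1/2 (median -0.35), while all genes centre near 0. The rule caps both double mutants below fha2, so this shift is partly set by the choice of members.

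In chr11/17 against rlt1/2, which tests whether the effects of the double mutants differ, 292 members were lower in chr11/17 (57.9%, beside 30.1% of all genes tested) and 12 were higher (2.38%, beside 29.3%). The 12 were ABF3, AGL20, AT1G02740, AT1G22250, AT1G62510, AT3G05640, AT3G22142, CGA1, KIN2, LIG6, MCM9 and P5CS1. Of these, ABF3, KIN2 and P5CS1 belong to the osmolyte and cold lists above. AT3G05640 was higher by 1.64 and ABF3 by 1.44 (log2; edgeR adjusted p = 6e-06 and 2e-06). No TCP, ARF, RWP-RK, cellulose, cuticle, sterol or small RNA member was among the 12. As only 2.38% of all members were, nothing is read from this absence.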

How the data were processed

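The authors deposited expected counts for each gene and library, beside FPKM for each library and the mean of each genotype; the header does not name FPKM, which was recognised from the values. The authors also deposited a log2 fold change, a p-value and a q-value for each mutant over Col. By q-values under 0.05 these call 312 members lower in chr11/17 (61.7% of 506, beside 23.01% of all genes with a q-value). They call 95 members lower in rlt1/2 (18.8% of 506, beside 11.5%). In fha2 they call 127 members higher (25.0% of 509, beside 2.61%). The rule fixes the direction in fha2, and nothing is read from that count. The submitters' processing notes list Bowtie2, RSEM, DESeq2 and TAIR10 without roles, and no source used here gives the strand of the kit.

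Members were found on the deposited FPKM. Expected counts were rounded, filtered with filterByExpr by genotype (20866 genes kept), scaled by TMM and tested in 1 fit of all 8 libraries with genotype as the only term (edgeR 4.0.16, R 4.3.3). DESeq2 1.42.0 and limma 3.58.1 (voom) were alternatives. The test was also run on simulated counts with far fewer changed genes than were called here, so no error rate is taken from that run. Gene IDs matched the RefSeq annotation of TAIR10.1 for 25198 of 25198, and coordinates of microRNAs and sites come from a match to that assembly. Near-identical transcripts were found with BLAST 2.17.0.

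The members and all gene lists were chosen with earlier results of these data known, and the lists of TCP, growth-regulating factor, NIN-like, small RNA, cellulose, cuticle, osmolyte and sterol genes after the members had been seen, so they support nothing by themselves. Named genes are the 12 with the largest ratio, the 12 most abundant, up to 4 with the smallest adjusted p each way per comparison, list members, neighbours, families with at least 3 members, those at 0 elsewhere and those at the limit. Alternatives were scaling, filter, tool, fits of a pair alone, a replicate block, and leaving out each library. Replicate numbers did not pair the libraries (correlations from -0.11 to 0.0702).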

Additional observations from a re-analysis of the deposited data

Results flagged for a closer look

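AT4G22520, a lipid-transfer family gene, moved in opposite directions in the 2 double mutants. It had 0 counts in both chr11/17 libraries and, with 3 counts over the genotype as the floor, was at least 66.5-fold lower there than in rlt1/2 and at least 37.4-fold lower than in Col. In rlt1/2 it rose by 0.83 ± 0.26 on the log2 scale over Col (edgeR adjusted p = 0.026). The fitted log2 difference between chr11/17 and rlt1/2 was -9.57 (edgeR adjusted p = 7.2e-07), a value that depends on the prior count because of the 0 counts. The rise in rlt1/2 was not called without rlt1/2 replicate 2 or Col replicate 2. AT4G22520 overlaps AT4G22530, which had 16.4 and 18.5 FPKM in chr11/17, 10.9 and 10.6 FPKM in rlt1/2, and 4.71 and 4.52 FPKM in Col. As the strand used in counting is not given, the reads of these 2 genes cannot be separated.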

How the results depend on the processing

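The number of members was 204 with TMM-scaled FPKM, 228 with TMM-scaled CPM, 2011 at the looser minimum fold tried and 55 at a minimum of 2. It ranged from 445 to 623 when 1 library was left out, the highest without Col replicate 2. CPM of total counts, an alternative chosen after seeing the data, gave 723 genes, which include 493 members.

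The count that fell in chr11/17 was 364 to 385 with 1 library left out and 364 with DESeq2, and the count that rose there became 4 with total counts. In rlt1/2 the count that fell was 71 with total counts and 84 to 152 with 1 library left out, and the count that rose was 11 with total counts, 2 with a minimum of 1 CPM in 2 libraries, 2 with limma-voom, 3 in a fit of the pair alone and 0 to 2 with 1 library left out. In chr11/17 against rlt1/2, 232 to 281 members were lower and 8 to 9 higher with 1 library left out.

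With the replicate number as a block, 397 members fell in chr11/17, 168 fell and 1 rose in rlt1/2, and 289 were lower and 12 higher in chr11/17 than in rlt1/2. Crossing the replicate numbers of Col, chosen after seeing the data, in a fit of chr11/17 and Col alone gave 386 lower and 0 higher.

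For the named genes called in the main test, 1217 values under alternatives kept the call, 85 lost it and none changed sign. Total counts took 24 of these calls and leaving out rlt1/2 replicate 1 took 14. The cause was not tested. With 2 libraries per genotype, members at 1 to 2 FPKM rest on few counts.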

Other observations

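Disease resistance genes of the nucleotide-binding leucine-rich repeat class were also among the members. RPP8 had 14.2 and 15.8 FPKM in fha2, 3.27 and 3.69 FPKM in chr11/17, 5.95 and 6.74 FPKM in rlt1/2, and 8.55 and 9.83 FPKM in Col. AT5G48620 had 10.9 and 10.6 FPKM in fha2, 2.53 and 3.08 FPKM in chr11/17, 5.36 and 4.68 FPKM in rlt1/2, and 6.08 and 7.23 FPKM in Col. Both followed the order fha2, Col, rlt1/2, chr11/17 without overlap, an order whose share among all genes was not counted. Neither was scale-independent. RPP13, which recognises downy mildew in Arabidopsis, had 7.95 and 8.40 FPKM in fha2, 5.09 and 5.33 FPKM in chr11/17, 5.15 and 4.85 FPKM in rlt1/2, and 4.13 and 4.47 FPKM in Col, and was scale-independent. It was called in neither double mutant against Col, at -0.00 ± 0.10 in chr11/17 and -0.07 ± 0.10 in rlt1/2 on the log2 scale (edgeR adjusted p = 0.98 and 0.64). These genes overlap other listed genes.

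WOX2, a homeobox gene known from the early embryo, had 2.35 and 2.15 FPKM in fha2, 0.33 and 0.25 FPKM in chr11/17, 1.41 and 0.94 FPKM in rlt1/2, and 1.37 and 1.46 FPKM in Col. It fell by 2.55 ± 0.37 in chr11/17 against Col (log2; edgeR adjusted p = 5.3e-05). MYB102, by contrast, fell in both, by 2.80 ± 0.57 in chr11/17 and 2.46 ± 0.55 in rlt1/2 (edgeR adjusted p = 0.00078 and 0.0036); its levels were 1.40 and 1.04 FPKM in fha2, 0.13 and 0.10 FPKM in chr11/17, 0.10 and 0.20 FPKM in rlt1/2, and 0.46 and 0.92 FPKM in Col.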
